A study of Caenorhabditis elegans with 2 samples.

Results

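The heat shock factor gene hsf-1 and 5 genes of the cytosolic HSP70 machinery (hsp-1, hsp-110, dnj-13, dnj-12 and dnj-19) were examined for binding of the transcription factor MDL-1 in Caenorhabditis elegans. These 6 genes, of 19973 nuclear protein-coding genes, were selected on the signal ranks of these same peak lists as known from earlier results, so the ranks and signals below describe them and are not tests. For each gene, regions were taken whose summit lay between 5 kb upstream of its most upstream annotated 5' end and the end of the gene. MDL-1 is a Mad-like basic helix-loop-helix leucine zipper protein, and it was mapped by chromatin immunoprecipitation and sequencing (ChIP-seq) in whole L4 larvae. Both libraries, replicates 1 and 2 of the only group, came from strain OP355, genotype unc-119(tm4063) III; wgIs355, an insertion for mdl-1, with males and females pooled. The labels are at odds on the tag, since a note gives a C-terminal GFP-FLAG fusion to KLU-1 while the other labels name MDL-1. The labels do not say what drives the transgene, 1 strain stands for all worms, and whole animals do not show in which tissue a site is bound. The labels give no second condition and no heat shock.

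The authors deposited 30000 candidate regions for each replicate and for the pooled data, and an "optimal" list of 1115 regions, which are the 1115 strongest of the pooled list. Each region carries a signal, the authors' value from their peak caller, and rank 1 is the strongest region of a list. Signals run on a separate scale in each list (with a maximum of 701 for the pooled data, 436 for replicate 1 and 274.5 for replicate 2), so replicates are set side by side by rank. Read depth is unknown, because the lists carry no read totals. The labels call the libraries biological replicates.

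As background, HSP70 proteins hold unfolded protein chains in cycles of ATP hydrolysis. J-domain proteins bring clients to HSP70 and start hydrolysis, and HSP110 proteins exchange the nucleotide so that the client is released. Together these proteins refold damaged proteins and take aggregates apart. HSF-1 is the transcription factor that turns on chaperone genes after heat, and it also acts in larval growth. It binds heat shock elements, which are inverted repeats of the unit GAA, whereas Max-partner proteins such as MDL-1 are known for the E-box CACGTG.

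The HSP70 gene, its HSP110 partner and the J-domain genes each had a candidate region just upstream of the 5' end, and hsf-1 did not. Regions of hsp-1, dnj-13 and dnj-12 were in the optimal list. Those of dnj-19 and hsp-110 lay just below its end. None of these 5 regions held CACGTG within 198 bp of the summit, and most optimal regions lacked it too (29.8% held it). Several held the letters of a heat shock element, of which the pair GAANNTTC was in 12.9% of all optimal regions and 25.6% of weaker ones. Stretches around 3 of the summits, that of dnj-13 reaching past the upstream end of its region, are given on the strand of the gene, 5' to 3', to show where these letters lie. Capitals mark each GAANNTTC, TTCNNGAA or GAGAGA (read as TCTCTC on the other strand), and a run of 13 capitals is a heat shock element of 3 alternating units. The reference sequence is RefSeq's WBcel235, the build called ce11 in the files. For hsp-1 (IV:17278581-17278835, plus strand) the summit is base 91, for hsp-110 (III:8447004-8447191, minus strand) it is base 51, and for dnj-13 (II:11545281-11545569, plus strand) it is base 239.
hsp-1: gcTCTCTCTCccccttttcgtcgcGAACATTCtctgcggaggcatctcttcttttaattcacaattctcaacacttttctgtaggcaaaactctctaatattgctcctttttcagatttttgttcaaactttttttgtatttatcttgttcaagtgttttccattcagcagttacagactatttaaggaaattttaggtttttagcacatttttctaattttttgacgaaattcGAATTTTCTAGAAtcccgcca
hsp-110: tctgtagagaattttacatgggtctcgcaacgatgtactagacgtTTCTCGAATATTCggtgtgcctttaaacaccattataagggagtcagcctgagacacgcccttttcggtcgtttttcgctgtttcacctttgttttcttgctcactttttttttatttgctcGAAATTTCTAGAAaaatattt
dnj-13: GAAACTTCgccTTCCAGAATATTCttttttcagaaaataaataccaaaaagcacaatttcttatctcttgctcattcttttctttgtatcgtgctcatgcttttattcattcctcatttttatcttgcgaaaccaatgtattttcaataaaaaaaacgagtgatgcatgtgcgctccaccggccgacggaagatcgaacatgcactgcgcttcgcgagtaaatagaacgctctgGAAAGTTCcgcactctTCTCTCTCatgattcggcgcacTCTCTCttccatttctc

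Optimal summits were in the windows of 3 of the 6 genes (hsp-1, dnj-13 and dnj-12), against 7.46% of all protein-coding genes in windows built the same way. All 3 also lay in a promoter window, which starts 1000 bp before an annotated 5' end and stops 200 bp past it, where 3.18% of all genes had one. As the genes were chosen with these ranks known, nothing is read from that difference. The windows differ in length, from 6660 bp at dnj-13 to 14579 bp at hsf-1, and the median over all genes was 7027 bp. Pooled candidate regions of any rank were in the windows of 6 of 6 genes, against 76.2% of all genes, so the presence of a candidate region alone says little. Of pooled regions ranked 1500 or better, a limit set after the ranks were seen, 5 of the 6 genes had one with its summit at most 500 bp upstream of a 5' end, and 2.93% of all genes did.

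**Figure D1:**
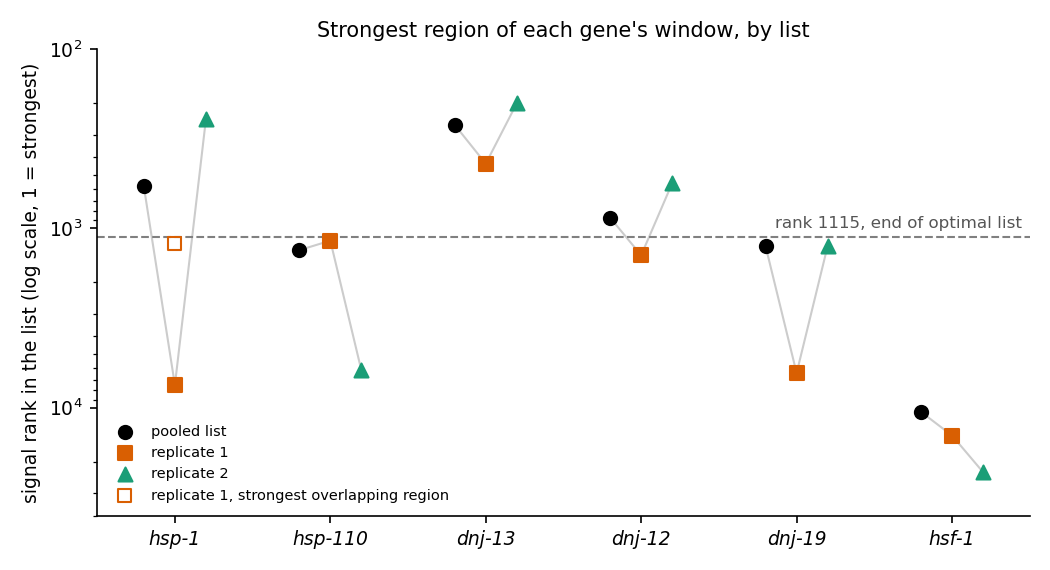
Signal rank (log scale, stronger ranks higher up) of the strongest pooled region in each gene's window. Also shown is the overlapping region with the nearest summit in each replicate list, and the dashed line is at rank 1115. The open square is the strongest replicate 1 region overlapping the hsp-1 region (rank 1209); dnj-13 is the only gene of the 6 above the line in all 3 lists, and hsf-1 lies far below it in each.

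The gene hsp-1 (IV:17278959-17281330, plus strand, WBGene00002005) encodes the constitutive cytosolic HSP70, the hub of this machinery. Its optimal region (IV:17278473-17278868) had rank 582 and signal 70.7 in the pooled list. The summit, IV:17278671, was intergenic and 288 bp upstream of the hsp-1 5' end. The replicates placed it differently. In replicate 2 the matching region had rank 244 (signal 41.2), with its summit 5 bp away. In replicate 1, 2 regions overlapped it, 1 with rank 7469 (signal 14.5) and its summit 88 bp away, and 1 with rank 1209 (signal 31.9) and its summit 122 bp away. The region therefore reached the 1115 strongest in replicate 2 and not in replicate 1, whichever of the overlapping regions is taken. Such splitting was common, since 29% of optimal regions overlapped at least 2 regions of replicate 1 and 34% at least 2 of replicate 2. The non-coding RNA gene F26D10.23, on the same strand, had its 5' end nearer to the summit (258 bp) than hsp-1, and no protein-coding gene did. The other 3 pooled regions in the window ranked 14066 or weaker.

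The gene hsp-110 (III:8443910-8446909, minus strand, WBGene00016250) encodes the HSP110 protein, the nucleotide exchange factor of HSP70. Its strongest pooled region (III:8446943-8447338) had rank 1321 and signal 44.2, below the lowest optimal signal of 48.2. The summit, III:8447141, was intergenic and 232 bp upstream of hsp-110. The matching region ranked 1169 in replicate 1 (signal 32.5, summit 42 bp away) and 6196 in replicate 2 (signal 10.7, summit 50 bp away). It is the only one of the 5 chaperone regions whose nearest-summit rank was better in replicate 1. The site lies between divergent genes, since the 5' end of rpn-3, a regulatory subunit gene of the proteasome, was 212 bp from the summit on the opposite strand and 444 bp from the 5' end of hsp-110. The non-coding RNA gene C30C11.14 was nearer still, at 46 bp. The nearest optimal summit was 29301 bp from the 5' end of hsp-110, with sor-1 as its nearest 5' end.

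The J-domain gene dnj-13 had the strongest region of the 6 genes. It encodes a DNAJB1-type protein, the class of J-domain partner known from other species for work in disaggregation. Its gene (II:11545701-11547360, plus strand, WBGene00001031) had an optimal region at II:11545321-11545716 with rank 264 and signal 104.4. The region ranked 435 in replicate 1 (signal 55.6) and 200 in replicate 2 (signal 45.2), and the 3 lists put the summit at the same base, II:11545519, 182 bp upstream of dnj-13. The summit was in an exon of the non-coding RNA annotation F54D5.22. That symbol stands for a pair of genes on opposite strands, with 5' ends 55 bp and 94 bp from the summit. No other gene, and no protein-coding gene, had a nearer 5' end than dnj-13.

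The gene dnj-12 encodes a DNAJA1-type J-domain protein, the class that binds unfolded clients itself. The gene (I:14756904-14758790, plus strand, WBGene00001030) had an optimal region at I:14756551-14756946 with rank 870 and signal 56.3. Its intergenic summit, I:14756749, lay 155 bp upstream of the 5' end, and no annotated gene had a nearer 5' end. The region ranked 1410 in replicate 1 (signal 29.5, summit 24 bp away) and 558 in replicate 2 (signal 28.4, summit 30 bp away). It was thus among the 1115 strongest in replicate 2 and not in replicate 1. It was also the only pooled candidate in the dnj-12 window.

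The gene dnj-19 encodes a DNAJA2-type protein, close in type to dnj-12. The gene (V:5503033-5504857, minus strand, WBGene00001037) had 1 pooled region, V:5505053-5505448, with rank 1251 and signal 45.4. The region ranked 6405 in replicate 1 (signal 15.3, summit 65 bp away) and 1249 in replicate 2 (signal 19.4, summit 2 bp away). Its summit, in a non-coding exon, lay 394 bp upstream of dnj-19 but 2 bp from a 5' end of nhr-47, a nuclear hormone receptor gene on the opposite strand whose 5' end is 396 bp from that of dnj-19. The signal can as well be given to nhr-47, and to the non-coding RNA genes C24G6.10 (10 bp) and C24G6.12 (204 bp). The nearest optimal summit was 79529 bp from the 5' end of dnj-19.

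The regulator gene hsf-1 (I:11953507-11963085, minus strand, WBGene00002004) had no optimal summit and no strong candidate. Its strongest pooled region, at I:11956219-11956614, had rank 10537 and signal 18. The summit was in an intron 5567 bp downstream of the nearer of 2 annotated 5' ends. The non-coding RNA gene R06C1.11, on the opposite strand, had its 5' end nearer to it (4427 bp). That region ranked 14284 in replicate 1 (signal 11.05) and 22894 in replicate 2 (signal 5.92). Upstream of the gene, the only pooled region lay 1671 bp from the 5' end, with rank 14207 and signal 16. It ranked 4875 in replicate 1, and no replicate 2 region overlapped it. The annotated gene WBGene00014915 had a 5' end nearer to its summit than hsf-1. The window held 3 pooled regions, 6 of replicate 1 and 5 of replicate 2, none of which ranked better than 4875. The nearest optimal summit was 22933 bp from the 5' end, beyond the 3' end of the gene, with R06C1.13 as its nearest 5' end. The list ends at relaxed candidates, so weak binding at hsf-1 is not shown to be absent.

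**Figure D2:**
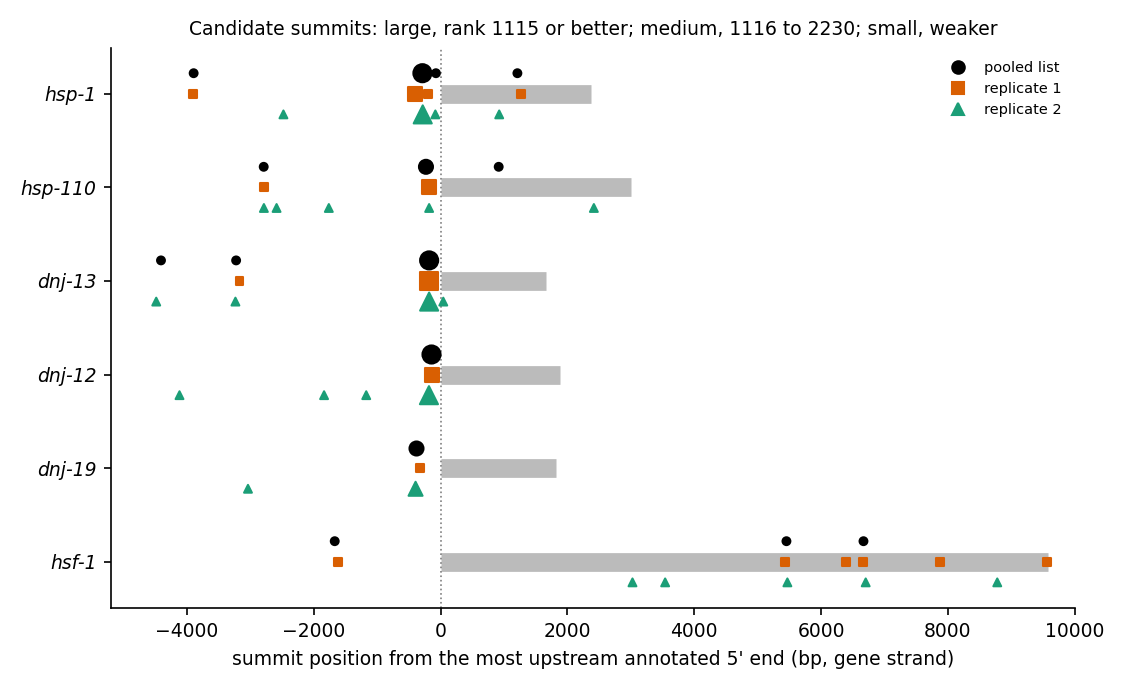
Summit positions of all candidate regions in the window of each gene, in bp from its most upstream 5' end along the gene's strand (grey bars are gene bodies, and symbols are the pooled list and each replicate). The large and medium symbols of 5 genes stand within 500 bp upstream of the 5' end, and hsf-1 has small symbols alone.

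The strongest pooled sites of the 5 chaperone genes were close to a 5' end. Their summits lay 155 to 394 bp upstream of the 5' end, and neither gene bodies nor the rest of the 5 kb windows held a pooled region stronger than rank 5144. The replicates differed at hsp-110, since its strongest region in replicate 2 was 2588 bp upstream (rank 3167, signal 13.5), ahead of the one 182 bp upstream (rank 6196, signal 10.7). Over all optimal regions the median distance to the nearest 5' end of any annotated gene was 309 bp, and to that of a protein-coding gene 858 bp. Taking all annotated genes, 1 of the 6 members (dnj-12) had an optimal summit for which its own 5' end was the nearest, against 2.98% of all protein-coding genes. With protein-coding 5' ends alone, this held for hsp-1, dnj-13 and dnj-12, 3 of the 6 members against 4.5% of all protein-coding genes.

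The libraries ranked these regions unequally. Among the 1115 strongest regions of replicate 2 were those of hsp-1, dnj-13 and dnj-12, 3 of 6 genes against 7.37% of all genes. Among those of replicate 1 there was dnj-13 alone, 1 of 6 against 7.46%. The optimal regions of hsp-1, dnj-13 and dnj-12 all ranked better in replicate 2, as did 42.9% of the 1113 optimal regions that overlapped both lists. In replicate 1, 0.628% of optimal regions ranked below the hsp-1 region by nearest summit, 8.7% below that of dnj-12 and 60.9% below that of dnj-13. With the strongest overlapping region taken for every optimal region, the replicate 1 shares were 11.1% for hsp-1, 6.91% for dnj-12 and 59.3% for dnj-13, so the order of hsp-1 and dnj-12 turned. In replicate 2 the shares by nearest summit were 77.8% for hsp-1, 52.6% for dnj-12 and 81.7% for dnj-13. Of the 3 regions, 1 was among the 1115 strongest of both replicates, as were 64.3% of all optimal regions. With 2 libraries, no test between them was possible.

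The weakest of the 6 genes inside the optimal list was dnj-12 (rank 870 of 1115, signal 56.3), and the nearest outside it were dnj-19 (rank 1251, signal 45.4) and hsp-110 (rank 1321, signal 44.2), with the end of the list at signal 48.2. The authors' −log10 q-value was at its maximum, 3.34, for hsp-1, dnj-13 and dnj-12, as for 1095 of the 1115 optimal regions. It was 2.92 for dnj-19, 2.72 for hsp-110 and 0.144 for hsf-1, and the lowest value inside the optimal list was 2.86. The dnj-19 region was therefore outside the list with a q-value score above the lowest inside it, and by that score it ranked 1149.

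The regions were also compared by sequence. The genes are a heat shock and chaperone class picked with their regions known, so the motif shares are descriptions and not tests. CACGTG and its variant CACGCG were absent within 198 bp of the summits of hsp-1, hsp-110, dnj-13, dnj-12 and dnj-19, 0 of 5 regions for each. Over the same window of 397 bp, close to the usual region width of 396 bp, CACGTG was in 29.8% of all optimal regions and 8.72% of weaker pooled regions. For CACGCG these shares were 19.6% and 5.31%. In the 500 bp upstream of the 5' end, 0 of 6 genes held CACGTG, against 8.61% of all protein-coding genes, and 0 of 6 held CACGCG, against 7.45%. No match says only that these letters are not in these windows.

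The repeat GAGAGA was in 3 of the 5 regions within 198 bp (hsp-1, dnj-13 and dnj-19), against 67% of all optimal regions and 24% of weaker ones. Within 50 bp it was in those of dnj-13 and dnj-19, 2 of 5, against 36.5% of all optimal regions. At dnj-13 it stood 3 times, overlapping matches counted singly, with centres between 14.5 and 36.5 bp downstream of the summit. At hsp-1 the matches were 85.5 and 83.5 bp upstream of it. In the 500 bp before the 5' end, GAGAGA was found at 4 of the 6 genes, against 30% of all protein-coding genes.

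Heat shock element letters were counted in windows of 2 widths, of which 198 bp either side of the summit was chosen after the data were seen. The pair GAANNTTC, searched on both strands like all motifs here and palindromic, was within 198 bp of the summit in 5 of 5, against 12.9% of all optimal regions and 25.6% of weaker ones. The reverse arrangement TTCNNGAA was in 3 of 5, against 14% and 24.7%. Both pairs are common upstream of genes in general. In the 500 bp before the 5' end GAANNTTC was found at 5 of the 6 genes and 29.8% of all protein-coding genes. TTCNNGAA was found there at 5 of 6 and 29.1%. The heat shock element of 3 alternating units, 13 bp long and so made of 1 match of each pair overlapping, was near the summits of hsp-1, hsp-110 and dnj-12. That is 3 of 5 regions, against 2.24% of all optimal regions (25 of 1115) and 2.82% of weaker ones. The 3-unit form was added after the pairs had been seen. In the 500 bp before the 5' end it was found at 4 of the 6 genes, against 3.25% of all protein-coding genes (650 of 19973). Among 81 other heat shock and chaperone genes the share was 17.3%, unevenly spread over the groups. The element was at 4 of 8 other HSP70 family genes, 4 of 16 on the HSP90 list and 6 of 14 small heat shock genes. It was at 0 of 26 other J-domain genes, 0 of 14 chaperonin and prefoldin genes and 0 of 3 known binders of HSF-1. The element started 144 bp upstream at hsp-1, 237 and 115 bp at hsp-110, 45 bp at dnj-12 and 409 bp at dnj-13. Neither hsf-1 nor dnj-19 held it. These matches are descriptions of letters, and no binding of HSF-1 was measured.

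The distance from these letters to the MDL-1 summits differed between genes. At hsp-110 the pooled summit base lay within a 3-unit element, whose centre was 1 bp away. The matching summits of replicates 1 and 2, 42 and 50 bp from the pooled one, were outside that element. At dnj-13 the summit base, the same in all 3 lists, lay within a GAANNTTC. At hsp-1 the centre of the element was 150 bp downstream of the summit and at dnj-12 116 bp downstream. Within 50 bp of the summit, GAANNTTC was in 2 of the 5 regions (hsp-110 and dnj-13), against 1.88% of all optimal regions and 7.38% of weaker ones. TTCNNGAA was there in 1 of 5, against 2.6% and 6.76%, and the 3-unit element in 1 of 5, against 0.448% and 0.751%. Both of these were at hsp-110, so none of the 3 optimal regions of hsp-1, dnj-13 and dnj-12 held either in the narrower window.

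**Figure D3:**
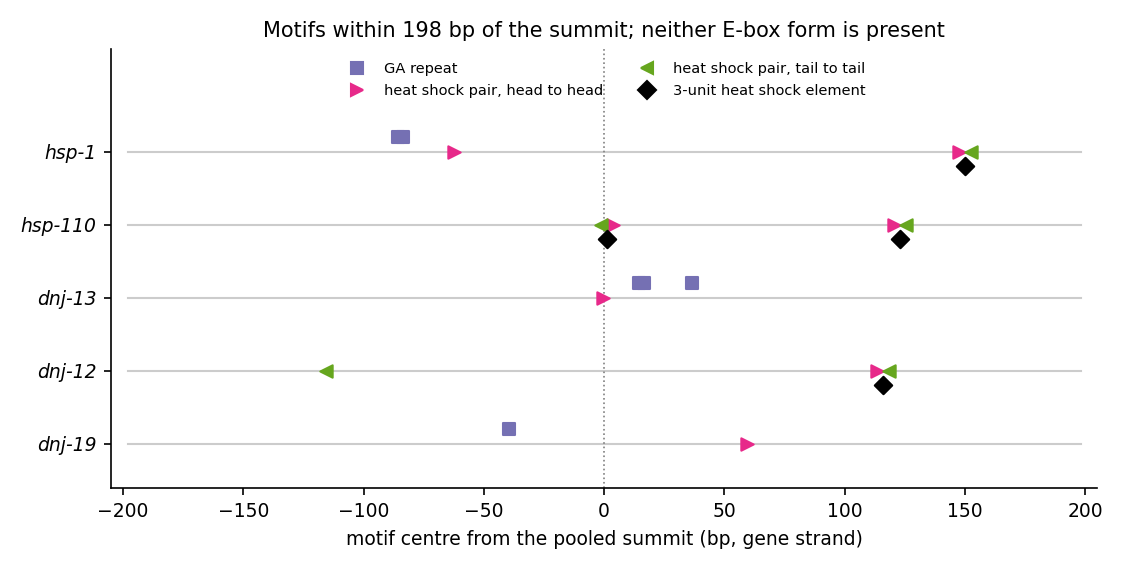
Centres of motif matches within 198 bp of the pooled summit (bp, gene strand) at 5 genes, with squares for GAGAGA, triangles for the pairs GAANNTTC (head to head) and TTCNNGAA (tail to tail), and diamonds for 3-unit elements. A diamond stands at the pooled hsp-110 summit, though the matching summits of both replicates were outside that element. Those of hsp-1 and dnj-12 stand 150 and 116 bp downstream.

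**Figure D4:**
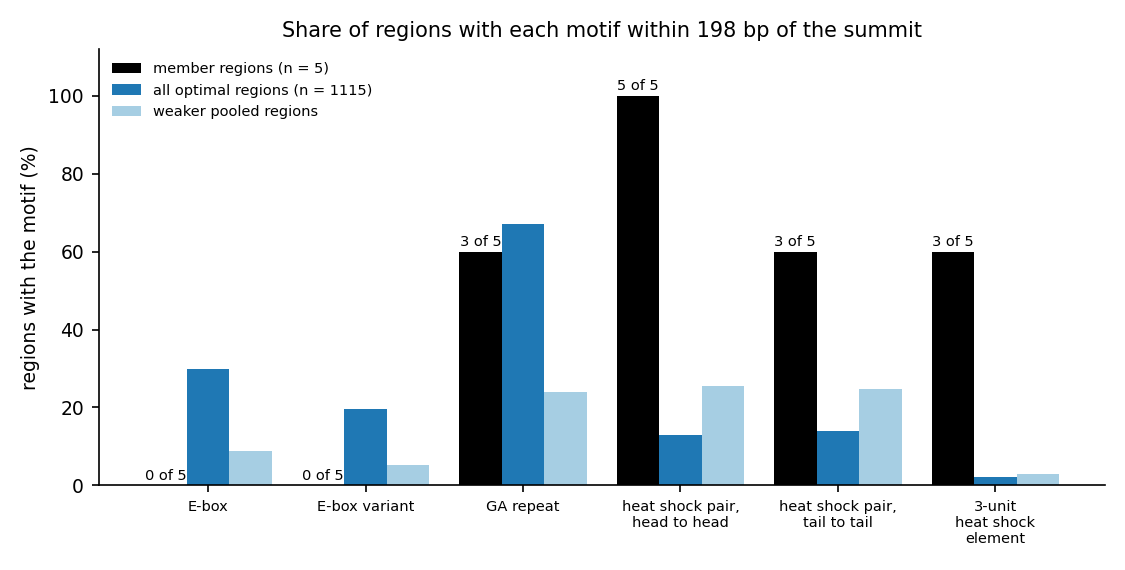
Share of regions (%) with each motif within 198 bp of the summit in the 5 member regions, all 1115 optimal regions and the weaker pooled regions. The E-box CACGTG is in 0 of 5 member regions and 29.8% of optimal ones, and its variant CACGCG in 0 of 5 and 19.6%. GAANNTTC is in 5 of 5 and 12.9%. The first bar of each group rests on 5 regions.

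Base content at the summits ranged widely. Within 50 bp of the summit, G and C made up 29.7% at hsp-1, 24.8% at dnj-12, 42.6% at hsp-110, 49.5% at dnj-13 and 58.4% at dnj-19, against a median of 48.5% over all optimal regions and 32.7% over weaker ones. Of all optimal regions, 1.7% had a lower content than hsp-1 and 0.359% a lower one than dnj-12. The content of dnj-13 was in the middle of the list, above 51.7% of it. Whether base content had a part in the motif shares was not tested.

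Other genes of the heat shock and chaperone network had optimal summits about as often as genes in general. Of 81 further genes on the lists, 6 (7.41%) had an optimal summit in the 5 kb window, against 7.46% of all genes, and 3 (3.7%) had one in the promoter window, against 3.18%. By group these were 0 of 3 for the known binders of HSF-1 (hsb-1, ddl-1 and ddl-2) and 0 of 8 for other HSP70 family genes. For HSP90 and its co-chaperones the count was 1 of 16, on a list that also held hsp-60 and trap-1. The counts were 1 of 26 for other J-domain genes, 2 of 14 for small heat shock proteins, and 2 of 14 for the CCT chaperonin and prefoldin. The strongest was at enpl-1, the HSP90 of the endoplasmic reticulum, with rank 319 (signal 94.7) and its summit 6 bp upstream of the 5' end, and it ranked 378 in replicate 1 and 330 in replicate 2. The chaperonin gene cct-1 had rank 544, 232 bp upstream, with ranks of 1354 in replicate 1 and 329 in replicate 2. The J-domain gene dnj-14 had rank 881, 324 bp upstream, with ranks of 620 and 5879 in replicates 1 and 2. The region assigned to cct-5, rank 755, was in an intron 5335 bp downstream of its 5' end, and it ranked 433 in replicate 1 and 17637 in replicate 2. The region at the small heat shock genes hsp-16.48 and hsp-16.1, rank 377, was 1 shared summit 2120 and 4066 bp upstream, and it ranked 201 in replicate 1 and 17463 in replicate 2. Each of these 2 symbols stands for a pair of annotated genes, 1 of each pair having the summit in its window, and how uniquely reads map there was not measured. Genes with a 5' end nearer to the summit numbered 0 at enpl-1, 1 at cct-1, 3 at dnj-14 and 3 at cct-5. For the shared summit they numbered 2 at hsp-16.48 and 6 at hsp-16.1. With the 1115 strongest regions of replicate 2 alone, 7 network genes had a summit, of which 2 (cct-1 and enpl-1) were among these 6. With those of replicate 1 alone there were 8, of which 5 (all but cct-1) were among the 6.

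The heat shock element was also counted across those network genes. Of the 81, 14 (17.3%) held a 3-unit element in the 500 bp before the 5' end. Among them were the inducible HSP70 genes hsp-70, F44E5.4 and F44E5.5, the HSP90 gene hsp-90, and 6 genes of the hsp-16 group. F44E5.4 and F44E5.5, and pairs of hsp-16 genes, are divergent neighbours whose windows of 500 bp overlap. The same element can therefore count for both genes of a pair. Of the 4 members with an element, hsp-1, dnj-13 and dnj-12 had an optimal summit in the promoter window, as did 0 of these 14 genes and 30 of all 650 genes with an element (4.62%). At that share fewer than 1 of 14 genes would have one, so little can be read from the 0. Of the 635 genes that had such a summit there, 30 (4.72%) held the element. The members were picked for their regions, so their count is a description.

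In rank over the pooled list and both replicates, the optimal region most like that of dnj-13 had aakg-1 as the nearest protein-coding gene, with ranks 260, 457 and 194 and a log10 rank distance of 0.026 over 3 lists. For dnj-12 it was the region at rbc-2 (ranks 796, 1320 and 622, distance 0.067). For hsp-1 the closest was the region at F28F9.3 (ranks 1023, 8578 and 269, distance 0.26). With the strongest overlapping region of each replicate in place of the nearest summit, the match of hsp-1 changed to the region at lin-14 (ranks 572, 1203 and 254, distance 0.019). That of dnj-12 changed to the region at egl-3 (ranks 916, 1389 and 585, distance 0.031), and that of dnj-13 was again the region at aakg-1. The summits lay 1927 bp from the 5' end of lin-14 and 1068 bp from that of egl-3.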

How the data were processed

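The deposited files are peak lists in narrowPeak layout, per the deposited README notes. The authors called candidate regions per replicate and on pooled data and derived the optimal list from these 3 by the irreproducible discovery rate. Neither aligner nor peak caller was given in the sources used here. The signal (column 7) and the −log10 q-value (column 9) are the authors' values as deposited, and no control library was used here. Only the lists on ce11 were used, the build of the reference genome and of the Ensembl release 115 annotation. Signals were ranked within each list, and summits were taken from the deposited offsets. A replicate region matched by at least 1 bp of overlap, and the nearest summit gave its rank. Features at a summit were assigned over all transcripts. Of 89 symbols on the network lists, 4 (daf-21, dnj-6, hsp-16.11 and hsp-16.49) matched no gene symbol in the annotation. This does not mean that the genes themselves are missing, since a gene can be annotated under another symbol. The members and lists were chosen with earlier results of these data known, so no test was made. Named genes were the members, genes with nearer 5' ends, listed genes with optimal summits and the genes most alike in rank. R06C1.13 and sor-1, and listed genes with an element, were named after their values were seen. Motifs were searched on both strands in the RefSeq sequence. Alternatives covered the window, peak threshold, overlap, motif window and single libraries. Code (Python 3.11.15, numpy 2.4.6, pandas 2.3.3) was tested on simulated summits and motifs.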

Additional observations from a re-analysis of the deposited data

How the results depend on the processing

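Of the 6 genes, 3 had an optimal summit with 2 kb or 10 kb upstream, in the promoter window and with whole intervals. With the 557 strongest peaks 1 was left (dnj-13), as was 1 summit in their windows. Leaving out each replicate gave 1 to 3 genes and 1 to 3 summits, the lower value without replicate 2. Genes with an optimal summit nearest to their own 5' end numbered 0 with the 557 strongest peaks, 0 to 1 with each replicate left out, 2 when the 5' end had to lie inside the interval and 3 with protein-coding 5' ends only. Regions among the strongest of both replicates rose to 3 with 2230 top regions. The share of all genes with an optimal summit was 4.94% with 2 kb, 11.4% with 10 kb, 3.18% in the promoter window and 3.8% with the 557 strongest peaks. Other network genes numbered 3 in the promoter window. In the optimal regions of hsp-1, dnj-13 and dnj-12, GAGAGA rose to 2 regions with 100 bp or 198 bp either side, GAANNTTC to 2 with 100 bp and 3 with 198 bp, and TTCNNGAA to 2 with 198 bp. The windows of 198 bp, and taking the strongest overlapping region of a replicate, were chosen after seeing the data. The cause of these changes was not tested, apart from the smaller lists and wider windows themselves. The depth of the libraries is unknown and limits what can be said of ranks below the optimal list. No paired analysis was possible because there was 1 group and no test.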
